A study of Mus musculus with 11 samples.

Results

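The 33 genes described here encode parts of the cardiac sarcomere and of the Z-disc, together with the enzymes and chaperones that build and turn them over. They were chosen by name, with earlier results of these data known. Each was matched to its Ensembl identifier in the mouse annotation, and all 33 were found among the 35584 genes of the deposited count table. All 33 also passed the minimum of a mean of 10 normalised counts that was set for testing, as 13884 genes did. Whole-heart RNA of male mice, 8 to 12 weeks old, was sequenced in 11 libraries of 4 groups. Macrophage-depleted mice (n = 3) carried the diphtheria toxin receptor at the gene for CD169 (CD169-DTR). Toxin was given to remove their CD169-expressing macrophages, a depletion of 21 days by the labels. These mice received 0.01 µg of toxin per g of body weight in 3 injections a week for 3 weeks. Mertk-KO mice (n = 2) are labelled as lacking Mertk, a receptor with which phagocytes take up dying cells and debris. LXR-DKO mice (n = 3) carry a double knockout of the liver X receptors alpha and beta by their labels, which control cholesterol handling. WT mice (n = 3) were given toxin on the same schedule as the Macrophage-depleted mice. The labels do not say whether the 2 knockout groups received toxin, so genotype and toxin cannot be told apart there. CD169-DTR allele and depletion cannot be told apart in the Macrophage-depleted group. Whether every library is a different mouse is not stated, so p-values describe only how these libraries vary, and part of that may be technical.

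The sarcomere is the contractile unit of heart muscle, in which thick filaments of myosin pull on thin filaments of actin. Calcium binding to the troponin complex moves tropomyosin and frees actin for myosin. Z-discs anchor the thin filaments of neighbouring sarcomeres, M-bands hold the thick filaments in register, and titin spans the distance between Z-disc and M-band. Many Z-disc proteins also bind signalling molecules, and ubiquitin ligases and chaperones replace worn parts.

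The promoters of 6 members are printed first, because 5 of these genes passed the test between Mertk-KO and WT and the other one, Myoz2, was called between Macrophage-depleted hearts and both knockout groups. Each is the 250 bases before the RefSeq start that lies nearest to the principal transcript, on GRCm38.p6, written in the direction of transcription. Capitals mark a CArG box (the site bound by serum response factor), a MEF2 site (bound by myocyte enhancer factors) or CATTCC (a site bound by TEAD factors), on either strand. Positions are those of the first capital, counted back from -1, the base just before the start.
Nebl (chr2:17731135-17731384, minus strand): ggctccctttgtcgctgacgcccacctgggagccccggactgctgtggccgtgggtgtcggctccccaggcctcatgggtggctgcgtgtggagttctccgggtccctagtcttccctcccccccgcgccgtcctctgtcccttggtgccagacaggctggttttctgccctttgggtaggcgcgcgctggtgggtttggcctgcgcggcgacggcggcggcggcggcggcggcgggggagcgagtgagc
Myl3 (chr9:110763428-110763677, plus strand): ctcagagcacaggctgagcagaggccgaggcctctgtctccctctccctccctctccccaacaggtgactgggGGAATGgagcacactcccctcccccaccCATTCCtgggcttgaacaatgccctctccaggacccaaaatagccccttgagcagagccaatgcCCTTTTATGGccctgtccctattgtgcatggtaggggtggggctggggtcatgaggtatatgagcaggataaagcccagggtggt
Tnnc1 (chr14:31208062-31208311, plus strand): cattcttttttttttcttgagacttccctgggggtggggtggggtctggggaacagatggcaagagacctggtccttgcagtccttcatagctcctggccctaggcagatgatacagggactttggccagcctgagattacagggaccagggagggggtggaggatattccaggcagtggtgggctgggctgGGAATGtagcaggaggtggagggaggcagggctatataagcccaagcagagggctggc
Des (chr1:75360042-75360291, plus strand): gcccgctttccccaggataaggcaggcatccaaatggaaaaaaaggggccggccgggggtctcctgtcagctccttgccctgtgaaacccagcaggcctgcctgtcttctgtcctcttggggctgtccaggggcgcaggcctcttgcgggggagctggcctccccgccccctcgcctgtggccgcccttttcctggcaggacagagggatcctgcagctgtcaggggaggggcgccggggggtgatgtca
Fhl2 (chr1:43163962-43164211, minus strand): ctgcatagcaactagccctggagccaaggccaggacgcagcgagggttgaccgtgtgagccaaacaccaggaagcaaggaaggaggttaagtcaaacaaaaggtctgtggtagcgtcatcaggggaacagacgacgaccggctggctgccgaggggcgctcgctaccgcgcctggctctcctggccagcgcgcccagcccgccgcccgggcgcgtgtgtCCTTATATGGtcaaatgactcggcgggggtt
Myoz2 (chr3:123034988-123035237, minus strand): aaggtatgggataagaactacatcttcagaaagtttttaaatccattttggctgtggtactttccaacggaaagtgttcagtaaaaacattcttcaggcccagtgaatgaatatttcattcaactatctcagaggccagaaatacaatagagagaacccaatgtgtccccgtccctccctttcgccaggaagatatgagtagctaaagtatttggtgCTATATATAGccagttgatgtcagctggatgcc

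The Myl3 promoter held a CArG box at -85 and CATTCC at -149 and -177. The Fhl2 promoter held a CArG box at -31, the Tnnc1 promoter held CATTCC at -58 and the Myoz2 promoter held a MEF2 site at -33. The windows printed for Nebl and Des held none of these 3 motifs. Nebl has 4 RefSeq starts, and windows at other starts held a CArG box at -162 and CATTCC at -230. Of the 33 members, 29 matched a RefSeq promoter, with 40 promoters between them. Even the nearest start lay 7762 bases from the principal transcript for Myl2 and 2365 for Ttn. A CArG box stood in 8 of the 40 (20%), against 1.47% of the 32851 promoters in the table. A MEF2 site stood in 4 (10%), against 0.508% of all promoters. CATTCC stood in 10 (25.0%) against 12.6% of all, and the short E-box CANNTG in 29 (72.5%) against 66.2% of all. The 8 promoters with a CArG box belong to 6 genes (Actc1, Fhl2, Ldb3, Myl3, Myom1 and Nebl). The 4 with a MEF2 site belong to 4 genes (Mybpc3, Myoz2, Synpo2l and Ttn). The 2 Ldb3 windows overlap and hold the same CArG box. By gene, a CArG box stood in 20.7% of the 29 members, against 1.62% of all genes, and a MEF2 site in 13.8%, against 0.592%. CATTCC stood in 34.5% against 14.4%, and CANNTG in 79.3% against 69.3%. A match is a run of letters, not a measured binding site.

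Libraries held 10938600 to 20722295 estimated reads, and 31.4% to 36.5% of these came from the mitochondrial genome. Siglec1, which encodes CD169, was at 33.8, 2.12 and 0.719 normalised counts in the Macrophage-depleted libraries, against 64.3, 55.3 and 53.4 in WT, so the first depleted library kept the most. Nr1h3 averaged 27.7 in LXR-DKO against 162 in WT, and Nr1h2 averaged 92.2 against 531. Mertk was at 75.7 and 89.4 in Mertk-KO against 131, 147 and 130 in WT, a range that a Macrophage-depleted library at 75.4 also reached. The labels do not say which exons of Mertk were removed. Myh6, the main adult ventricular myosin of the mouse, was at 314263 to 428147 normalised counts across the 11 libraries, so this marker of heart muscle was present in each.

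Levels of different members can be compared only per length, on the scale of normalised TPM. The 33 members took between 5.59% and 6.80% of all TPM of a library, and between 9.84% and 11.8% once the mitochondrial genome was set aside. In WT hearts the order ran from Myl2, the regulatory light chain of ventricular myosin, at 12697 ± 727 TPM (SD, n = 3), to Pdlim3, a PDZ and LIM protein of the Z-disc, at 11.4 ± 2.16. The highest of these WT means was 1118 times the lowest. Tnnt2, the troponin that binds tropomyosin, followed Myl2 at 8305 ± 392 TPM. Tpm1 (alpha-tropomyosin, 7109 ± 187) and Actc1 (cardiac actin, 6745 ± 197) came next, and their WT libraries overlapped. Myl3, the essential light chain of ventricular myosin, averaged 5821 ± 233 TPM, Tnni3, the inhibitory troponin, 4526 ± 198, and Tnnc1, the calcium-binding troponin, 2761 ± 59.0. All 7 of these most abundant members belong to the myosin light chains and the thin filament.

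The Z-disc proteins began lower, with Csrp3 (muscle LIM protein) at 1544 ± 49.8 TPM and Tcap (telethonin, which binds the Z-disc end of titin) at 1400 ± 272 in WT. The WT libraries of these 2 genes overlapped, as did those of Tcap and Fhl2, a LIM protein of the Z-disc region and of the nucleus, at 1184 ± 98.7. Mybpc3, myosin-binding protein C, averaged 907 ± 16.6 TPM, and Actn2, the alpha-actinin that crosslinks actin at the Z-disc, averaged 671 ± 11.7. Nebl, which encodes the actin-binding protein nebulette of the Z-disc, stood at 108 ± 9.99 TPM, next to Trim63, whose WT libraries overlapped with it. Ttn stood at 77.5 ± 4.37 TPM per length although it was among the members with the most reads, because its principal transcript is 100404 bases long. Of the 32 neighbouring pairs in the WT order, 23 did not overlap between the 3 WT libraries and 9 did.

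**Figure D1:**
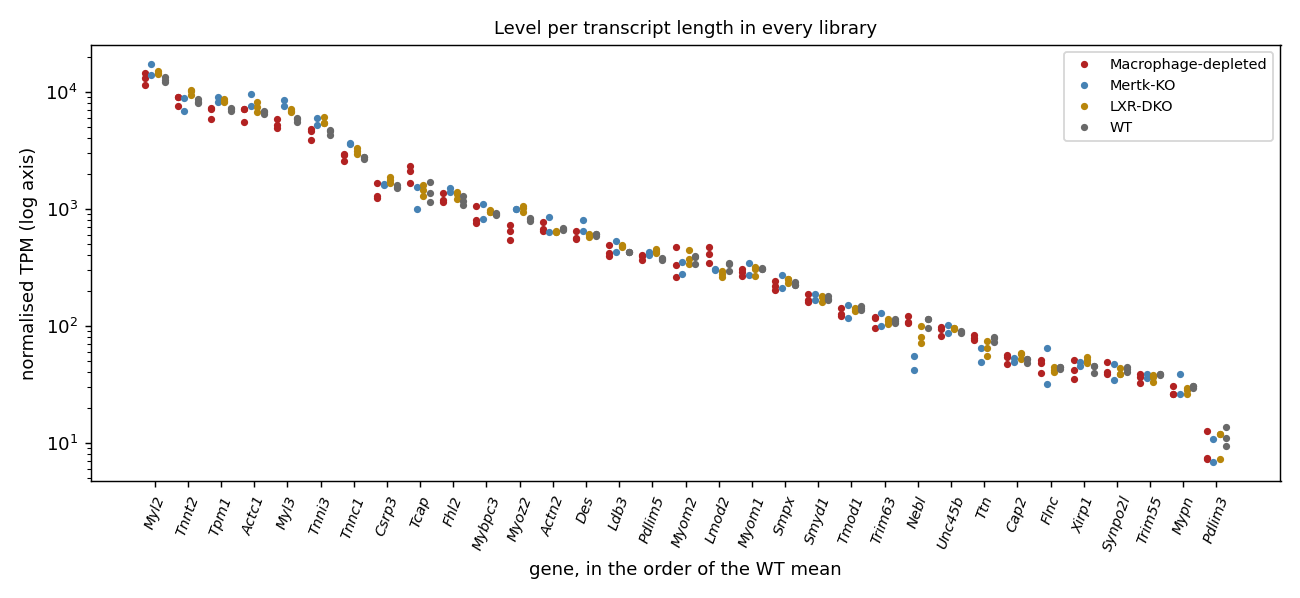
Normalised TPM (log axis) of each of the 33 members in each of the 11 libraries, with genes in the order of their WT mean and points coloured by group. Nebl is the member whose Mertk-KO points stand farthest below its WT points, and levels span from 12697 TPM (Myl2) to 11.4 TPM (Pdlim3) in WT.

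Members varied little between WT libraries. The median SD of log2(normalised count + 1) over the 33 members was 0.145 in Macrophage-depleted, 0.220 in Mertk-KO and 0.0770 in LXR-DKO libraries, against 0.0565 in WT libraries. Over all tested genes these medians were 0.140, 0.199 and 0.145, against 0.113 in WT. In WT, 28 of the 33 members had an SD below 0.1, and Tcap had the highest at 0.273. The second Macrophage-depleted library lay below the WT range in 24 members. In Mertk-KO, 12 members had 1 library above and the other below the WT range, with the widest gap at Flnc, the actin-crosslinking filamin of muscle, at 7047 and 3615 normalised counts against 4896, 4679 and 4894 in WT. The same held for 18 members in the Macrophage-depleted and 6 in the LXR-DKO group. The shares of all tested genes outside the WT range in these ways were not counted. Without those shares, the counts are not read as a result about sarcomere genes. Groups of 3 libraries can lie on both sides more easily than 1 of 2, so these counts are not compared between groups.

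**Figure D2:**
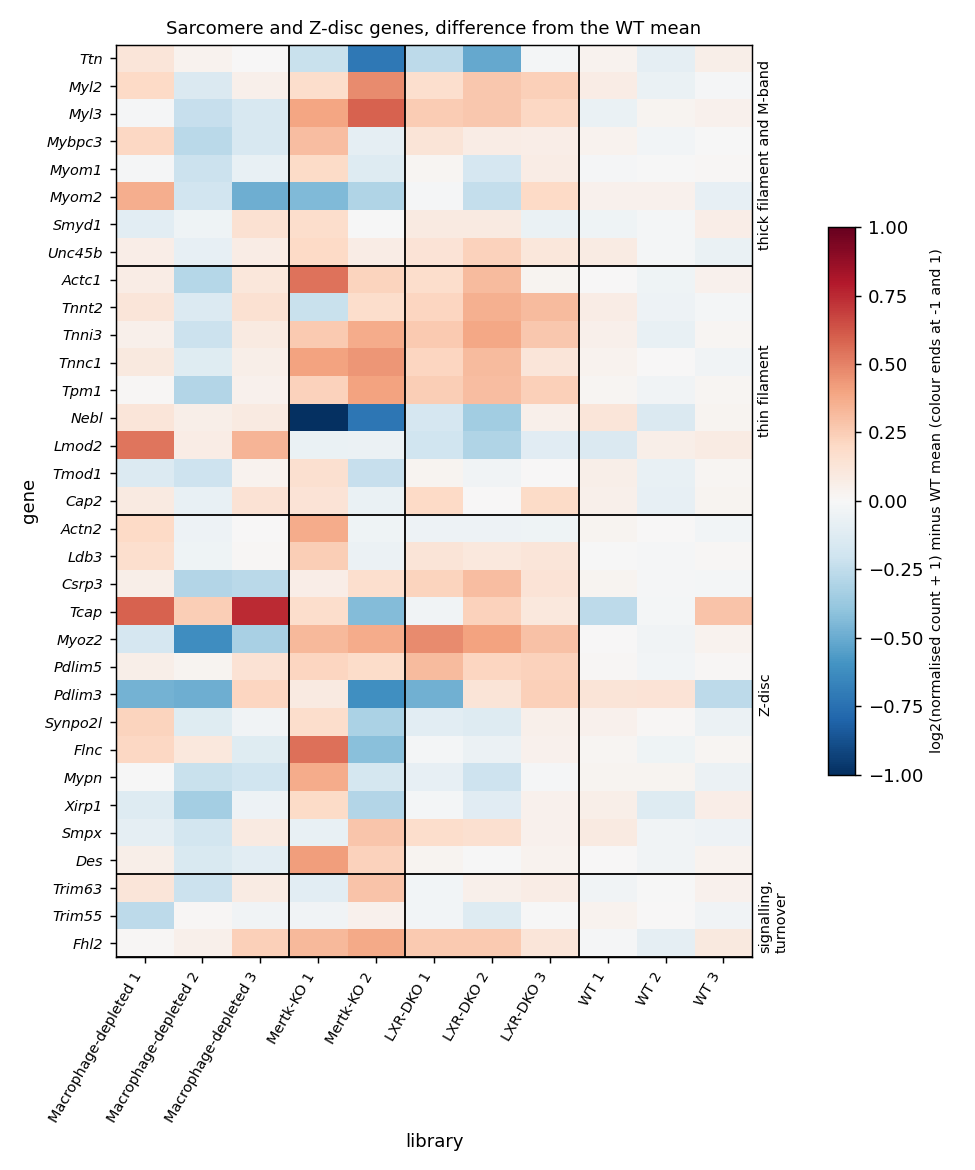
Difference of each library from the WT mean on the log2(normalised count + 1) scale, for the 33 members (rows, by role) in 11 libraries (columns, by group). Colours end at -1 and 1. Nebl is the darkest blue row in both Mertk-KO libraries, and the myosin light chains and troponins are red in Mertk-KO and LXR-DKO libraries, apart from Tnnt2 in the first Mertk-KO library.

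Between Mertk-KO and WT hearts, 5 of the 33 members passed the test (limma, adjusted p below 0.05), which is 15.2%, against 9.27% of all tested genes. The transcript of nebulette was at 50.6% of its WT mean in Mertk-KO, while those of a myosin light chain, a troponin, desmin and a LIM protein were higher. Of the members, 4 were called higher, where 3.38% of all genes were, and 1 was called lower, where 5.89% of all genes were. At an unadjusted p below 0.05 there were 12 members (28.6% of all genes). The median log2 difference was 0.09 over the 33 members and -0.01 over all tested genes. In whole-heart RNA, a change in the share of heart muscle cells and a change in RNA per cell cannot be told apart.

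Nebl was at 2173 and 3222 normalised counts in the Mertk-KO libraries, against 5780, 4812 and 5404 in WT. Both Mertk-KO libraries lay below every WT library and below every other library. The means were 2697 ± 742 in Mertk-KO (SD, n = 2) and 5332 ± 488 in WT (SD, n = 3), a log2 difference of -1.01 (SE 0.153, limma adjusted p = 0.00973). Per length, the TPM table gave 48.6 ± 9.0 TPM in Mertk-KO and 108 ± 9.99 TPM in WT. The call held in 22 of 24 alternative analyses, with adjusted p from 5.1e-05 to 0.0804. It was lost when only the 2 groups were fitted (0.0804) and with weights per library (0.0526). Once trends with length and GC content were removed the log2 difference was -0.54, with an adjusted p of 0.0302.

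On the thick filament, Myl3 was at 72392 and 82630 normalised counts in Mertk-KO, against 52478, 56137 and 56613 in WT. Both Mertk-KO libraries lay above all WT libraries, with means of 77511 ± 7240 and 55076 ± 2262 and a log2 difference of 0.49 (SE 0.104, limma adjusted p = 0.0213). On the thin filament, Tnnc1 was at 25771 and 26430 in Mertk-KO, against 19905, 19513 and 18936 in WT. Again the groups did not overlap, and the log2 difference was 0.42 (SE 0.0924, limma adjusted p = 0.0235). Myl3 overlaps Pth1r and Tnnc1 overlaps Nisch, each on the opposite strand, and the labels do not say whether counting used strand. Both calls held in 15 of 24 alternatives, and both were lost without any 1 of the 3 WT libraries. With the length trend removed, Myl3 differed by 0.27 (adjusted p = 0.102) and Tnnc1 by 0.19 (adjusted p = 0.181).

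Des encodes desmin, the intermediate filament that ties Z-discs to each other and to the cell membrane. It was at 25915 and 22769 normalised counts in Mertk-KO, against 19414, 18849 and 19836 in WT, a log2 difference of 0.33 (SE 0.0906, limma adjusted p = 0.0451). Fhl2 was at 20189 and 20939 in Mertk-KO, against 15968, 15115 and 17259 in WT, a log2 difference of 0.35 (SE 0.0958, limma adjusted p = 0.0425). Neither gene's libraries overlapped between Mertk-KO and WT. These 2 calls were the least steady, held by Des in 9 and by Fhl2 in 10 of 24 alternatives. Both were lost without any 1 WT library and with the TPM table, where the adjusted p was 0.147 for Des and 0.130 for Fhl2. Des was also lost without the first Mertk-KO library, the depleted library numbered 3 or any 1 LXR-DKO library, and Fhl2 without either Mertk-KO library or the first or second LXR-DKO library.

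**Figure D3:**
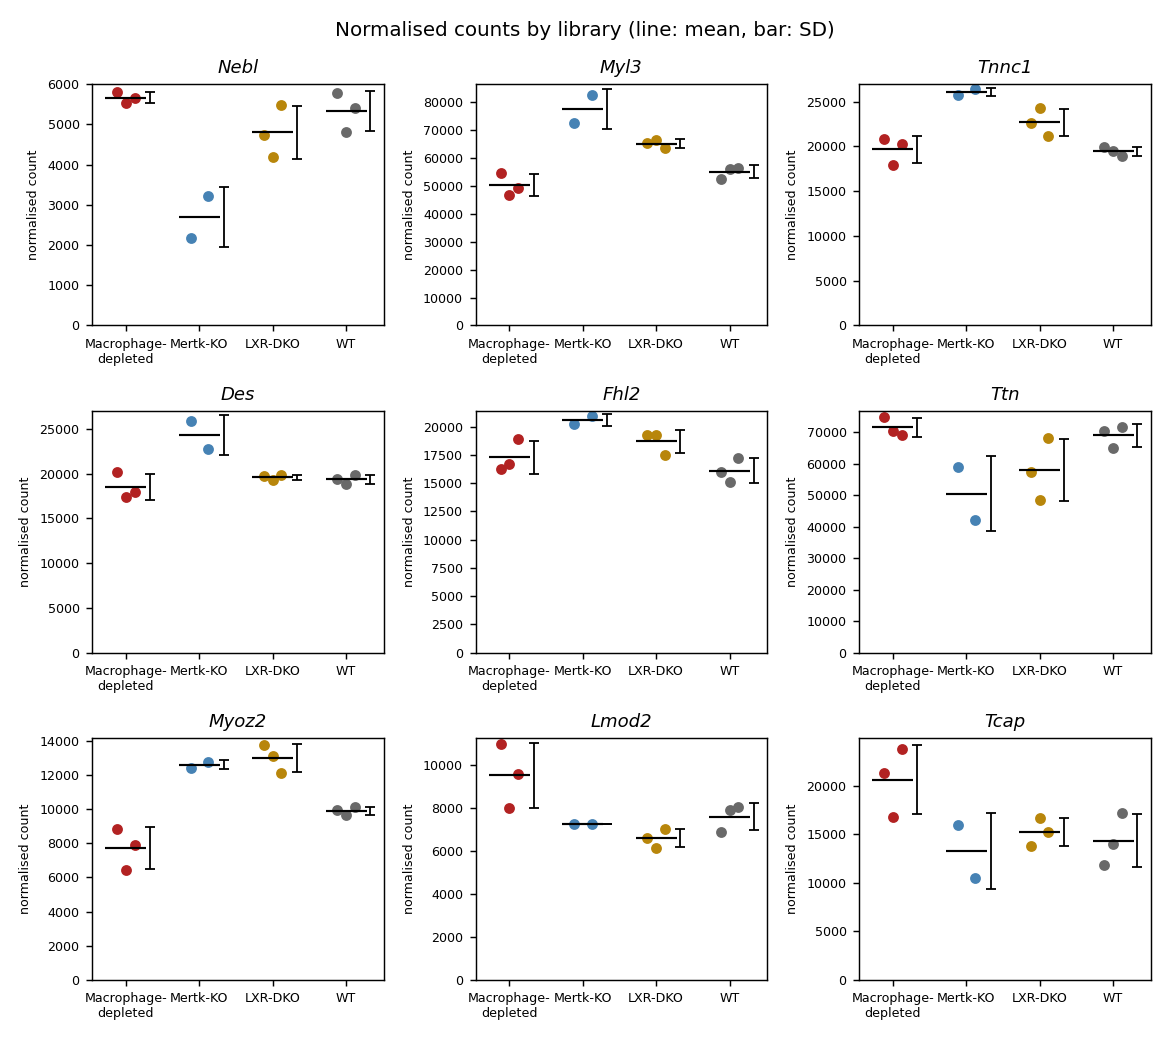
Normalised counts in every library for 9 members, by group, with a line at the mean and a bar reaching 1 SD either way to its right; every axis starts at 0. Mertk-KO points lie below WT for Nebl and above WT for Myl3, Tnnc1, Des and Fhl2, and Myoz2 points lie lower in Macrophage-depleted and higher in Mertk-KO and LXR-DKO hearts than in WT.

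The other core members did not pass the test between Mertk-KO and WT. Titin's Ttn was at 58902 and 42035 normalised counts in Mertk-KO, against 70475, 64797 and 71541 in WT, below every WT library in both. Its log2 difference was -0.47 (SE 0.158, limma adjusted p = 0.0778), and it was 0.42 (adjusted p = 0.0908) with the length trend removed. Without the first Mertk-KO library it was -0.71 (limma adjusted p = 0.0181), and without the second -0.23 (0.366). Myl2 was at 77954 and 95699 in Mertk-KO, against 72799, 65918 and 68497 in WT, a log2 difference of 0.32 (limma adjusted p = 0.116). Actc1 was at 158517 and 127456 in Mertk-KO, against 108999, 106057 and 111998 in WT, a log2 difference of 0.38 (limma adjusted p = 0.117). An opposite-strand gene overlaps each of these 2 (Ccdc63 at Myl2, A530058N18Rik at Actc1).

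Both Myl2 and Actc1 lay above WT in both Mertk-KO libraries, and Tnnt2, Mybpc3 and Actn2 did not. Tnnt2 was at 75497 and 99595 in Mertk-KO, against 92715, 84962 and 87187 in WT, on both sides of the WT range. Mybpc3 was at 57298 and 43347 in Mertk-KO, against 47229, 45414 and 45987 in WT, and Actn2 was at 30695 and 23077, against 24246, 23766 and 23246. For these 3 genes the 2 Mertk-KO libraries differed from each other by more than either mean differed from WT. Counting every member, 11 of 33 had both Mertk-KO libraries above all WT libraries, where 21.4% of all genes did, and 3 (Ttn, Myom2 and Nebl) had both below, where 21.1% did.

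Between Macrophage-depleted and WT hearts, none of the 33 members passed the test with limma, where 0.238% of all tested genes did. At an unadjusted p below 0.05 there were 3 members, Myoz2, Tcap and Lmod2, where 7.53% of all genes were past it. The median log2 difference was -0.0021 over the members and 0.0029 over all tested genes. Lowest among the members was Myoz2, which encodes a calsarcin, a Z-disc protein that binds alpha-actinin and the phosphatase calcineurin. It was at 8835, 6431 and 7929 normalised counts in Macrophage-depleted hearts, against 9936, 9653 and 10128 in WT. All 3 depleted libraries lay below all WT libraries, with a log2 difference of -0.37 (SE 0.103, limma adjusted p = 0.280). With weights per library its adjusted p was 0.0458.

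Highest was Tcap, at 21293, 16768 and 23784 normalised counts in Macrophage-depleted hearts, against 11804, 13995 and 17226 in WT. The groups overlapped through the depleted library at 16768, and the log2 difference was 0.53 (SE 0.179, limma adjusted p = 0.434). Lmod2, a leiomodin that lengthens thin filaments at their pointed ends, was at 10995, 7990 and 9610 in Macrophage-depleted hearts, against 6888, 7905 and 8056 in WT. Its log2 difference was 0.31 (limma adjusted p = 0.456). Ttn was at 74925, 70421 and 69120, against 70475, 64797 and 71541 in WT, with overlap. For Actc1, Tnnt2, Myl2, Mybpc3 and Actn2 the log2 differences lay between -0.07 and 0.05, and the second depleted library was the lowest of its group for all 5.

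Actc1 was at 114906, 89495 and 117665 in Macrophage-depleted hearts, Tnnt2 at 96039, 80346 and 97871, and Myl2 at 79061, 62355 and 71418, with the WT values given above. Mybpc3 was at 53455, 38340 and 41281 and Actn2 at 27255, 22892 and 23766 in Macrophage-depleted hearts. For each of these 5 genes the depleted libraries lay on both sides of the WT range. Only Pdlim5 had all depleted libraries above and only Myoz2 had all of them below WT, which is 1 of 33 each, where 8.51% and 8.15% of all genes did.

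Between LXR-DKO and WT hearts, none of the 33 members passed the test with limma either, where 0.418% of all tested genes did. At an unadjusted p below 0.05 there were 9 members, where 11.5% of all genes were past it. The median log2 difference was 0.09 over the members and 0.0011 over all tested genes. All 3 LXR-DKO libraries lay above all WT libraries for 13 members, where 12.0% of all genes did, and below them for 1, Actn2, where 10.7% did. The 13 were Myl2, Myl3, Mybpc3, Unc45b, Tnnt2, Tnni3, Tnnc1, Tpm1, Ldb3, Csrp3, Myoz2, Pdlim5 and Fhl2, none of which passed the adjusted test.

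Myoz2 was highest by size, at 13736, 13114 and 12114 normalised counts in LXR-DKO hearts, against 9936, 9653 and 10128 in WT. Its log2 difference was 0.39 (SE 0.103, limma adjusted p = 0.211), and the adjusted p was 0.0187 when only the 2 groups were fitted and 0.0126 with weights per library. Tnni3 was at 47924, 52182 and 47987, against 41265, 37910 and 40508 in WT, a log2 difference of 0.31 (SE 0.0972, limma adjusted p = 0.295). Dnaaf3 overlaps Tnni3 on the same strand, so reads of the overlap could have been split between them. Pdlim5, a PDZ and LIM protein that binds alpha-actinin, had the smallest adjusted p of the list, at 8603, 8037 and 8122 in LXR-DKO against 6982, 6787 and 6978 in WT, a log2 difference of 0.25 (SE 0.0647, limma adjusted p = 0.182).

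Of the core members, Tnnt2 was at 102162, 113177 and 109969 in LXR-DKO, against 92715, 84962 and 87187 in WT, a log2 difference of 0.30 (limma adjusted p = 0.397). Myl2 was at 77611, 83167 and 81261, above all WT libraries, and Mybpc3 was at 50544, 48585 and 48474, also above them. These differences were small beside those of Myoz2 and Tnni3, with log2 values of 0.22 for Myl2 and 0.09 for Mybpc3. Actc1 was at 123176, 135664 and 110799 in LXR-DKO and overlapped with WT, and Ttn was at 57294, 48425 and 68019 and overlapped as well. Actn2 was at 22961, 22966 and 23096 in LXR-DKO, just below the lowest WT value of 23246.

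The perturbed groups were also set against each other, in comparisons that share libraries with those above. Macrophage-depleted and Mertk-KO hearts differed in 10 of 33 members (30.3%), where 21.0% of all tested genes were called, with 4 higher (11.6% of all genes) and 6 lower (9.39%) in Macrophage-depleted hearts. Macrophage-depleted and LXR-DKO hearts differed in 4 of 33 (12.1%), where 3.24% of all genes were called, with 1 higher (1.35% of all genes) and 3 lower (1.89%). Mertk-KO and LXR-DKO hearts differed in 1 of 33 (3.03%), where 2.46% of all genes were called, and that member was lower in Mertk-KO, as 1.77% of all genes were.

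Myoz2 was lower in Macrophage-depleted hearts than in both knockout groups. Between Macrophage-depleted hearts, at 8835, 6431 and 7929 normalised counts, and LXR-DKO hearts, at 13736, 13114 and 12114, the log2 difference was -0.76 (SE 0.103, limma adjusted p = 0.00239), a call held in 24 of 24 alternatives. Between Macrophage-depleted and Mertk-KO hearts, where Mertk-KO was at 12419 and 12783, it was -0.72 (SE 0.116, limma adjusted p = 0.00389), held in 23 of 24. No library overlapped in either comparison. Lmod2 went the other way, at 10995, 7990 and 9610 in Macrophage-depleted hearts, against 6635, 6156 and 7013 in LXR-DKO, a log2 difference of 0.52 (SE 0.110, limma adjusted p = 0.0282) held in 20 of 24. Against Mertk-KO hearts, at 7256 and 7280, the Lmod2 difference was 0.38 (limma adjusted p = 0.0468), held in only 7 of 24 alternatives.

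Nebl was higher in Macrophage-depleted hearts, at 5795, 5523 and 5652 normalised counts, than in Mertk-KO hearts, with a log2 difference of 1.10 (SE 0.153, limma adjusted p = 0.00241) held in 24 of 24 alternatives. Mertk-KO hearts were also below LXR-DKO hearts, at 4728, 4187 and 5494, by a log2 difference of -0.85 (SE 0.153, limma adjusted p = 0.0206), held in 18 of 24. In the main analysis the low level of Nebl thus stood against all 3 other groups. Its LXR-DKO level did not pass the test against WT (log2 difference -0.16, limma adjusted p = 0.686). With the TPM table the call between Mertk-KO and LXR-DKO was lost. Nebl in LXR-DKO then differed from WT by -0.37 (limma adjusted p = 0.386), at 80.38, 71.58 and 99.99 TPM against 114.2, 96.68 and 113.8. The other calls of the Macrophage-depleted to Mertk-KO comparison were lower Myl3 (-0.63, limma adjusted p = 0.00412), Tnnc1 (-0.41, 0.0125), Des (-0.39, 0.0137), Tpm1 (-0.40, 0.0374) and Tnni3 (-0.34, 0.0430). They held in 22 (Myl3), 20 (Tnnc1), 20 (Des), 11 (Tpm1) and 9 (Tnni3) of 24 alternatives. Tnnc1 was at -0.15 (limma adjusted p = 0.194) with the length trend removed and at -0.089 (0.434) with length and GC trends removed. Des lost its call with the TPM table (limma adjusted p = 0.0704), with only the 2 groups (0.130), with weights per library (0.0765) and without the first Mertk-KO library. Tpm1 was at 93385, 75530 and 95224 normalised counts in Macrophage-depleted hearts, against 108799 and 122377 in Mertk-KO, and Tnni3 was at 41263, 34347 and 42410, against 47835 and 51637. Neither gene's libraries overlapped. Tcap (0.66, limma adjusted p = 0.0373) and Ttn (0.52, 0.0369) were higher in Macrophage-depleted hearts, held in 14 and 11 of 24 alternatives. Against LXR-DKO hearts, Myl3 (-0.38) and Csrp3 (-0.39) were lower in Macrophage-depleted hearts, both with a limma adjusted p of 0.0488 and held in 9 and 10 of 24 alternatives. Csrp3 was at 12734, 9958 and 10125 in Macrophage-depleted hearts, against 14240, 15099 and 13437 in LXR-DKO, with no overlap.

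The remaining members are given by role, against WT. Their counts stand beside 9.27% of all tested genes called in Mertk-KO, 0.238% in Macrophage-depleted and 0.418% in LXR-DKO hearts, and 1 or 2 calls in a role are not read as a result about it. On the thick filament and M-band, none of 8 passed in Macrophage-depleted hearts, with log2 differences from -0.13 to 0.05. In Mertk-KO hearts 1 of 8 passed (range -0.47 to 0.49), and in LXR-DKO hearts none did (range -0.26 to 0.24). Myom2, an M-band crosslinker, was at 12734 and 14065 normalised counts in Mertk-KO, against 17787, 17815 and 16281 in WT, below all WT libraries (log2 difference -0.37, limma adjusted p = 0.239). Its relative Myom1, Smyd1 (a methyltransferase needed for sarcomere assembly) and Unc45b (a myosin chaperone) had log2 differences of 0.03, 0.08 and 0.13 in Mertk-KO.

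Among the 9 thin filament members, 2 passed in Mertk-KO hearts, Nebl and Tnnc1. Log2 differences ran from -0.10 to 0.31 in Macrophage-depleted, from -1.01 to 0.42 in Mertk-KO and from -0.20 to 0.31 in LXR-DKO hearts. Nebl, at -1.01, was counted in this role because its protein binds actin, although it is a protein of the Z-disc. Tmod1, which caps the pointed ends of thin filaments, and Cap2, a protein of actin turnover, lay at -0.04 and 0.04 in Mertk-KO. Among the 13 Z-disc members 1 passed in Mertk-KO hearts, and log2 differences ran from -0.37 to 0.53 in Macrophage-depleted, from -0.26 to 0.35 in Mertk-KO and from -0.10 to 0.39 in LXR-DKO hearts. Ldb3, Synpo2l, Mypn, Xirp1 and Smpx all lay within 0.2 of WT on the log2 scale in every group, and Xirp1 overlaps the macrophage gene Cx3cr1 on the same strand. Of the 3 signalling and turnover genes, Fhl2 passed in Mertk-KO. The ubiquitin ligases Trim63 and Trim55, which bind titin and mark sarcomere proteins for breakdown, lay at 0.09 and 0.0041 in Mertk-KO, -0.0021 and -0.10 in Macrophage-depleted and 0.03 and -0.05 in LXR-DKO hearts.

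Ratios of TPM within a library show which parts were unequal. The ratio of Actc1 to Ttn was 86.17, 69.98 and 94.64 in Macrophage-depleted, 149.8 and 154.5 in Mertk-KO and 115.9, 149 and 90.16 in LXR-DKO hearts, against 85.77, 90.01 and 85.58 in WT. Every Mertk-KO and LXR-DKO library was above every WT library, the third LXR-DKO library only just. The ratio of Tnnt2 to Tnnc1, partners in 1 troponin complex, was 3.04, 2.92 and 3.15 in Macrophage-depleted, 1.91 and 2.46 in Mertk-KO and 3.05, 3.14 and 3.44 in LXR-DKO hearts, against 3.12, 2.86 and 3.05 in WT. Only the Mertk-KO libraries were below the WT range there. The ratio of Tnni3 to Tnnc1, in the same complex, was 1.56, 1.51 and 1.67 in Macrophage-depleted, 1.46 and 1.64 in Mertk-KO and 1.75, 1.83 and 1.82 in LXR-DKO hearts, against 1.67, 1.54 and 1.70 in WT. Mertk-KO overlapped with WT in this ratio, and all LXR-DKO libraries were above WT. Ratios to Ttn, whose transcript is far longer than the others, move with any trend of the libraries with length.

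Such a trend was present. Principal transcripts of the members are 721 (Tnnc1) to 100404 (Ttn) bases long, with a median of 3013, against 3001 for all tested genes. Across the 33 members, Spearman's rho between length and log2 difference to WT was 0.111 in Macrophage-depleted, -0.529 in Mertk-KO and -0.633 in LXR-DKO hearts, a description over genes that share libraries. The 11 shortest members (721 to 1563 bases), the 11 middle ones (1604 to 3713) and the 11 longest (3979 to 100404) had median log2 differences of 0.32, 0.08 and 0.03 in Mertk-KO. In LXR-DKO the 3 medians were 0.22, 0.02 and -0.02, and all 11 of the shortest, 6 of the middle and 3 of the longest were above 0, as 50.2% of all tested genes were. In Macrophage-depleted hearts they were -0.03, -0.0021 and 0.02.

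The same rho was also taken in single libraries, against the WT mean. It was 0.114, 0.248 and -0.277 in Macrophage-depleted, -0.0926 and -0.704 in Mertk-KO and -0.495, -0.779 and -0.428 in LXR-DKO libraries. Over all 13871 tested genes with a length it was -0.0456, 0.226 and 0.0529 in Macrophage-depleted, -0.242 and -0.505 in Mertk-KO and -0.253, -0.381 and -0.148 in LXR-DKO libraries, so the trend was not confined to sarcomere genes. The second Mertk-KO library carried the steeper trend of its group, in members and in all genes alike. With the length trend of all genes removed from every library, rho over the members was -0.0819 in Macrophage-depleted, 0.314 in Mertk-KO and -0.0645 in LXR-DKO hearts. Nebl at 5780 bases remained called with the trend removed (log2 difference -0.80, limma adjusted p = 0.0332), and Myl3, Tnnc1, Des and Fhl2 did not. Des lost its call but not its size, at 0.34 (limma adjusted p = 0.0731) against 0.33 in the main analysis. It was at 0.23 (0.123) with length and GC trends removed. Fhl2 was at 0.22 (limma adjusted p = 0.174) with the length trend removed. Pdlim5 gained a call in Mertk-KO with the length trend removed (0.35, limma adjusted p = 0.0342), and with length and GC trends removed (0.46, 0.0184). In LXR-DKO, Pdlim5 passed with length and GC trends removed (limma adjusted p = 0.0481) and with weights per library (0.0118).

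**Figure D4:**
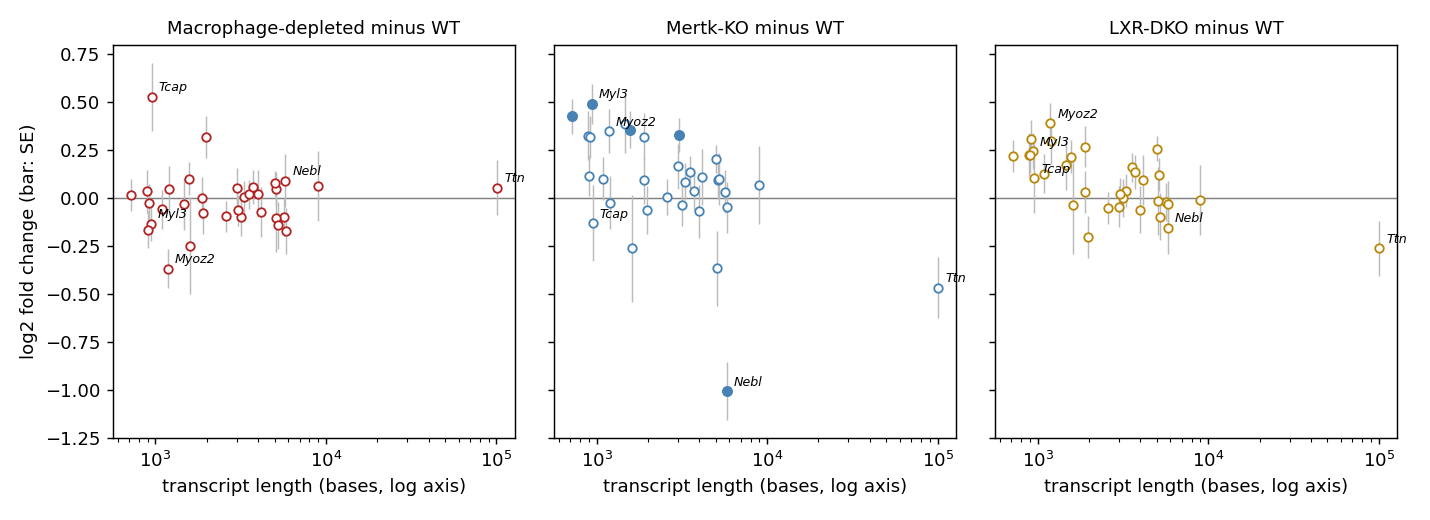
Log2 fold change to WT (bar: SE) of the 33 members against the length of the principal transcript in bases (log axis), in 3 panels by group; filled points passed the test. In Mertk-KO and LXR-DKO hearts the short members lie mostly above 0 and Ttn, the longest, lies below 0, while Nebl at -1.01 in Mertk-KO stands below members of like length.

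Other sarcomere genes outside the 33 were taken from a list of 47, of which 42 were tested. In Macrophage-depleted hearts 1 passed (0.238% of all genes), higher: Myh7, the slow myosin heavy chain of the fetal heart, at 8978, 14559 and 9196 normalised counts against 3453, 4116 and 3192 in WT (log2 difference 1.58, SE 0.193, limma adjusted p = 0.00839). In Mertk-KO hearts 1 was higher and 2 were lower, where 3.38% and 5.89% of all genes were, so the share of the list was below the 9.27% of all genes called. Acta1, skeletal actin, was at 11674 and 6752 in Mertk-KO, against 2949, 4384 and 2104 in WT (1.56, limma adjusted p = 0.0182). Neb, the skeletal relative of Nebl, was at 42.5 and 66.8, against 141, 77.9 and 167 in WT (-1.19, limma adjusted p = 0.0380). Xirp2, a Xin protein, was at 3554 and 6739, against 7962, 8887 and 8710 in WT (-0.80, limma adjusted p = 0.0440). In LXR-DKO hearts none passed with limma (0.418% of all genes). The median log2 difference of the 42 was -0.03 in Macrophage-depleted, -0.09 in Mertk-KO and -0.05 in LXR-DKO hearts.

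Genes of sarcomere quality control made a list of 18, all tested. Calls in this list, as in those of other sarcomere genes and of regulators, come from the main analysis alone. Whether they hold with the length trend removed was not tested. Over all tested genes, rho between length and log2 difference was -0.242 and -0.505 in the Mertk-KO libraries. In Mertk-KO hearts 7 of the 18 were called higher, where 3.38% of all genes were, and 1 lower, where 5.89% were. Higher were the small heat shock proteins Hspb8 (log2 difference 0.52, limma adjusted p = 0.0127), Hspb1 (0.79, 0.0148), Cryab (0.48, 0.0172) and Hspb6 (0.54, 0.0285), the protease Capn3 (1.31, 0.0140), the chaperone Hsp90aa1 (0.49, 0.0372) and the ubiquitin ligase Trim54 (0.43, 0.0448). Fbxo32, a ubiquitin ligase component that rises in muscle wasting, was lower (-0.43, limma adjusted p = 0.0428). Cryab, which protects desmin and titin, was at 18417 and 17458 normalised counts in Mertk-KO, against 12821, 12721 and 12904 in WT. Capn3, a titin-binding protease, was the 1 gene called in the other groups too, higher in both. It was at 53.5, 58.4 and 80.6 in Macrophage-depleted, 60.9 and 72.0 in Mertk-KO and 55.6, 80.1 and 84.3 in LXR-DKO hearts, against 25.5, 28.7 and 24.1 in WT, a control shared by all 3 comparisons.

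Of 13 tested regulators of sarcomere gene transcription, 2 were higher (3.38% of all genes) and 2 lower (5.89%) in Mertk-KO hearts, and none passed in Macrophage-depleted or LXR-DKO hearts. Srf, the factor that binds CArG boxes, was higher (log2 difference 0.50, limma adjusted p = 0.0425), as was Hand2 (0.64, 0.0440). Mef2c (-0.55, limma adjusted p = 0.0140) and Mef2a (-0.56, 0.0254), whose proteins bind MEF2 sites, were lower. Mef2a was at 2001 and 2600 normalised counts in Mertk-KO, against 3289, 3420 and 3357 in WT, with no overlap.

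Markers of other tissues and cells were measured beside these results. None of 10 skeletal muscle markers reached a summed level above 67.4 normalised counts in any library, and Myog was at 0 in all. The 9 atrial markers summed to 3834 to 7456 in Macrophage-depleted, 2180 to 3617 in Mertk-KO and 2177 to 18626 in LXR-DKO hearts, against 4159 to 27217 in WT. Of the 7 tested, 1 was called, Nr2f2, lower in Mertk-KO. The 10 macrophage markers summed to 1179 to 2407 in Macrophage-depleted, 3725 to 4863 in Mertk-KO and 2612 to 3182 in LXR-DKO hearts, against 3301 to 3801 in WT, and 2 (Timd4 and Cd163) were called, lower in Macrophage-depleted hearts. No tested marker of fibroblasts (7), endothelial cells (6), smooth muscle and pericytes (6), adipocytes (5) or erythrocytes (5) was called against WT in any group. The uncalled adipocyte markers nonetheless had a median log2 difference of -1.83 in Macrophage-depleted hearts, with 1 of 5 above 0. Cfd was at 8.45, 4.95 and 2.16 normalised counts there, against 28.7, 58.4 and 27.2 in WT (log2 difference -2.71, limma adjusted p = 0.0778), and Car3 differed by -1.83 (0.0757). All 5 erythrocyte markers were below 0 in Macrophage-depleted hearts (median -0.66), with sums of 3302 to 4862, against 4994 to 8508 in WT. The part of atrial tissue, macrophages, fat and blood in the values of the sarcomere genes was not tested.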

How the data were processed

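PolyA RNA of whole hearts was amplified with the Ovation Single Cell kit and made into Illumina libraries, per the labels' protocols. RSEM 1.2.20, kallisto 0.43.1, cutadapt, CASAVA 1.8.2 and the build GRCm38 are named, with no roles, in the submitters' processing notes. How libraries were scaled, which annotation was used and whether strand counted are not stated. The authors deposited a signal per gene in 2 tables: a normalised count (scaled to an effective depth, plus 0.5 read, as the values themselves show) and a normalised TPM. Estimated reads were recovered from the smallest value of each library. Between 57.9% and 61.8% of low values came out whole within 0.01 read, so no model of whole counts was used. Reads were then scaled to the mean effective depth.

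Genes averaging 10 or more normalised counts were tested with limma 3.58.1 in R 4.3.3 on log2(normalised count + 1), in 1 model of the 4 groups with a variance trend. Tests were two-sided, with Benjamini-Hochberg adjustment over the 13884 genes of each comparison and a threshold of 0.05. The log2(value + 1) scale understates changes of low genes. A gene at 0 reads can have up to 3 reads' worth, 2.12 to 4.22 normalised counts by library, a limit for counting error alone, because copies made by amplification cannot be told from molecules here. Positions, lengths and GC content come from GENCODE M21 (GRCm38). Values in every library are given for members past the threshold against WT, the 2 largest changes of each comparison and 6 core genes, and up to 4 genes of each other list are named by p. Members beyond this rule, the ratios and genes singled out beside them were chosen after their values were seen. The members and lists were chosen with earlier results of these data known.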

Additional observations from a re-analysis of the deposited data

How the results depend on the processing

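Each result of the 33 members was recomputed under 24 alternatives, 11 of which left out 1 library. Over the 33 members and 6 comparisons, 165 of 4752 values lost and 41 gained a call with the same sign, and 4 that were called in either analysis changed sign. Of the others, 188 uncalled values moved by more than their SE, 66 of them with a change of sign, and 4354 stayed on their side of the threshold, 127 of them uncalled and with a change of sign. Among the 66, Ttn was at 0.42 in Mertk-KO against WT and at 0.41 in Mertk-KO against LXR-DKO with the length trend removed, where the main values were -0.47 and -0.21. Members called in Mertk-KO against WT (5) numbered 1 with no mean minimum, 3 with the TPM table, 0 with only the 2 groups or with weights per library, 2 with the length trend removed, 2 with the length and GC trends removed and 1 with the replicate block. Over all genes the same comparison had 1287 calls, against 1 with only the 2 groups, 12 with weights per library, 185 with the length trend removed, 282 with the length and GC trends removed and 391 with the replicate block. In Macrophage-depleted against WT (0), weights per library gave 1. In LXR-DKO against WT (0), only the 2 groups gave 1, weights per library 2 and the length and GC trends removed 1. In Macrophage-depleted against Mertk-KO (10), no mean minimum gave 5, TPM values 6, only the 2 groups 1, weights per library 3, the length and GC trends removed 6 and the replicate block 6. In Macrophage-depleted against LXR-DKO (4), no mean minimum, the TPM table, only the 2 groups, median-of-ratios scaling and the replicate block gave 2 each and weights per library 8. In Mertk-KO against LXR-DKO (1), the TPM table, only the 2 groups, weights per library and the replicate block gave 0.

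Leaving out 1 library gave 0 in every case for Macrophage-depleted against WT and for LXR-DKO against WT. It gave 1 to 8 for Mertk-KO against WT: 1 without any 1 WT library, 3 without the first or second LXR-DKO library, 8 without the second Mertk-KO library. It gave 5 to 11 for Macrophage-depleted against Mertk-KO (5 without the first LXR-DKO or the second WT library), 1 to 5 for Macrophage-depleted against LXR-DKO (1 without the first or second LXR-DKO or the depleted library numbered 3) and 0 to 6 for Mertk-KO against LXR-DKO (0 without the LXR-DKO library numbered 1 or 3, 6 without the second Mertk-KO library). A lone Mertk-KO library is assumed to vary like the other groups. Without the first Mertk-KO library Flnc reversed, to -0.42 (limma adjusted p = 0.0358) in Mertk-KO against WT and to 0.48 (0.0132) in Macrophage-depleted against Mertk-KO, while without the second it was 0.55 and -0.48. Ttn reversed in Macrophage-depleted against Mertk-KO, to -0.41 (0.0536) with the length trend removed and to -0.081 (0.716) with length and GC trends removed. Beyond what a trend's removal itself does, the causes were not tested. Same-numbered libraries deviated with correlations of -0.0937 to 0.107, so the numbers were not read as pairs and the replicate block is shown only here. With 2 Mertk-KO libraries, the spread of that group rests on 1 difference.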

Other observations

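Some members varied more between libraries of a group than the median member of that group did. The few members given here were chosen after their values were seen. Myom2, the M-band crosslinker, was at 22205, 15159 and 12334 normalised counts in Macrophage-depleted hearts, against 17787, 17815 and 16281 in WT. Its SD of 0.43 on the log2 scale was the highest of any member in that group. Pdlim3, the least abundant member, was at 115.8, 177.4 and 191.3 normalised counts in LXR-DKO hearts, against 177.6, 178.1 and 135.2 in WT, and had the highest SD of that group, 0.388. Flnc had the highest of the Mertk-KO group, 0.681, and Tcap that of WT, 0.273. Mypn, which links nebulette and alpha-actinin at the Z-disc, was at 2544 and 1740 normalised counts in Mertk-KO hearts, against 2003, 2000 and 1890 in WT. Its mean in Mertk-KO thus lay above WT while the second library lay below.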
